A study of Mus musculus with 6 samples.

Results

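The genes of AMP-activated protein kinase (AMPK), its upstream kinases and its classical substrates were examined in neutrophils of cGAS-/- mice with and without lipopolysaccharide (LPS), the endotoxin of Gram-negative bacteria. The set held 10 genes, taken by gene symbol and not by their values, of 38739 genes in the table: the subunit genes Prkaa2, Prkab1, Prkab2, Prkag2 and Prkag3, the upstream kinase genes Stk11 and Camkk2, and the substrate genes Acaca, Acacb and Ulk1. Each of the 10 was above 0 somewhere among the 6 samples, as were 23049 genes in all, and those were the genes tested. The subunit genes Prkaa1 and Prkag1, both on chromosome 15, were not analysed here, so the complex could not be followed as a whole. The cells were neutrophils drawn into the peritoneum of cGAS knockout mice by thioglycolate and recovered by lavage. The strain is written C57B/L6 in the labels and C57BL/6J in the methods of the study, which describe male animals of 8 weeks. Of the 6 libraries, 3 came from cells kept in medium alone (untreated) and 3 from cells given LPS, with both groups held for 2 h. The LPS concentration was 500 ng/mL per the labels, while the methods of the study name a lower one. Every library lacked cGAS, the cytosolic sensor of double-stranded DNA, by genotype, and no wild-type library was among the 6, so no difference described here can be assigned to the deletion.

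AMPK is a heterotrimer of a catalytic alpha subunit, a beta subunit that holds the complex together and binds glycogen, and a gamma subunit that binds AMP, ADP and ATP. It is switched on when cellular energy falls, through phosphorylation of the alpha subunit by LKB1 (the product of Stk11) or, after a rise in calcium, by CaMKK2, and it then slows fatty acid synthesis by phosphorylating acetyl-CoA carboxylase and promotes autophagy by phosphorylating ULK1. Neutrophils draw most of their energy from glycolysis, and AMPK is known in myeloid cells as a brake on inflammatory activation. The control lies largely in phosphorylation, which transcript values do not measure.

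None of the 10 genes passed a limit in the limma test across all genes. The limits were an unadjusted p under 0.01 with a log2 difference of more than 2 in either direction, which 2.99% of the genes tested passed, or a Benjamini-Hochberg adjusted p under 0.05, which 1.84% passed (0.894% higher and 0.946% lower with LPS). At an unadjusted p under 0.05 there were 2 of the 10 genes, Camkk2 and Prkaa2, against 16.9% of all genes tested. With limma's voom, which is made for read counts and not for values of this kind, 1 gene passed the first limit and 3 the second. In that fit 7.50% and 40.8% of all genes did. The same 2 genes were the members whose samples did not overlap between the groups, Camkk2 with every LPS value above every untreated value and Prkaa2 with every LPS value below. Among all genes tested 22.9% did not overlap (13.1% with LPS above, 9.75% with LPS below), and 33.6% of the protein-coding genes with a mean of at least 0.5, so 2 of 10 was near the background. The differences of the 10 genes were above 0 in 4 and below 0 in 6, with a median of -0.03 on the log2 scale, beside a median of 0.01 over all genes tested and of 0.31 over those 7163 protein-coding genes. Above 0 were 12200 of the 23049 genes tested and 4559 of those 7163. With every sample scaled to its protein-coding total the split was 2 above and 8 below, with a median of -0.16. The deposited table names its values normalized counts, but they have the form of TPM, a transcript abundance that allows for transcript length and library size, after division by a factor of each sample. They were taken as such and are here called scaled TPM, and a log2 difference is LPS minus untreated on log2(scaled TPM + 1), a scale that understates the change of genes at low values. Of the 10 genes only Stk11 and Ulk1 had untreated values high enough to fall past the fold limit on this scale. The others, Prkaa2 among them, could not have passed it downward even at 0 with LPS, so missing it says nothing of a fall. The deposited values are means over several records per gene, so a level was compared between samples and not between genes. The plot of scaled TPM per sample shows the 10 genes side by side.

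**Figure D1:**
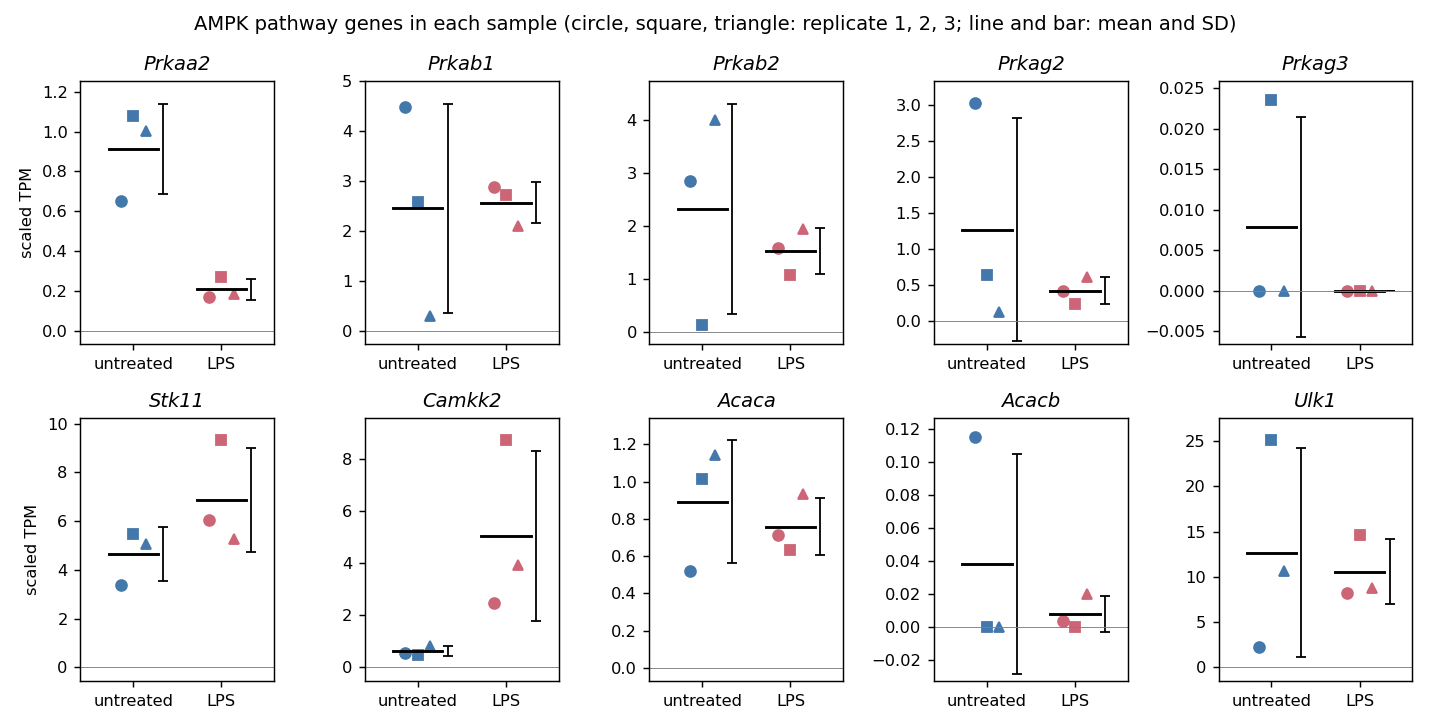
Scaled TPM (vertical axis, linear, with its own range in each panel) of the 10 genes in 3 untreated and 3 LPS samples, where the symbol gives the replicate number, the horizontal line the mean and the bar the SD. Camkk2 lies between 0.475 and 0.833 untreated and between 2.48 and 8.71 with LPS, Prkaa2 between 0.653 and 1.08 untreated and between 0.173 and 0.271 with LPS, and the groups of the other 8 genes overlap.

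The samples were checked before the genes were compared. Interleukin 1 beta (Il1b), a cytokine gene known to respond to LPS, stood at 178, 478 and 397 scaled TPM untreated and at 972, 2353 and 1504 with LPS, a log2 difference of 2.22 (limma adjusted p = 0.097) that passed the unadjusted limit, and the neutrophil chemoattractant gene Cxcl2 differed by 3.66 (limma adjusted p = 0.026). Cgas itself was listed at 0.0286 to 0.307 in the 6 samples, and without a wild-type library or the position of the reads these values do not test the genotype. The summed neutrophil markers (12 of 16 listed genes in the table, none at 0 throughout) ranged from 9741 to 28504 untreated and from 16076 to 54649 with LPS, beside macrophage sums of 165 to 414, while B cell markers summed to 262 to 1085 and erythroid markers to 21.5 to 5629, so the libraries were not of neutrophil RNA alone. The neutrophil sum was mostly S100a8 and S100a9 (8383 to 24556 untreated and 14435 to 48244 with LPS), and its members did not go one way: Cxcr2, a chemokine receptor gene, fell past the p and fold limits from a mean of 86.5 to 13.1 scaled TPM (log2 difference -2.67, limma adjusted p = 0.094), and the G-CSF receptor gene Csf3r had means of 373 and 186 without overlap of the groups. In such bulk samples fewer cells of a type and less RNA per cell cannot be told apart. Protein-coding genes held 21.0% to 28.3% of the summed values in untreated samples and 49.7% to 58.9% in LPS samples, and the untreated samples were less alike (correlation of log2 values 0.835 to 0.860) than the LPS samples (0.939 to 0.968). The labels do not say whether the samples came from separate animals or cultures, so p-values measure the spread between these samples, which may be technical. The number of reads per sample is unknown.

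Prkaa2 encodes the alpha2 catalytic subunit, the form that prevails in skeletal and heart muscle, and lies on chromosome 4 (GRCm39, 104886845 to 104967102, minus strand). Prkaa2 stood at 0.653, 1.08 and 1.00 scaled TPM untreated and at 0.173, 0.271 and 0.186 with LPS, means of 0.912 ± 0.227 and 0.210 ± 0.0535 (SD, n = 3 each). All 3 LPS values lay below all 3 untreated values, and the untreated mean was 4.34 times the LPS mean. The log2 difference was -0.65 (SE 0.22, 95% interval -1.20 to -0.11), with an unadjusted p of 0.0259 and an adjusted p of 0.21 in limma. With each sample scaled to its protein-coding total the ratio of the means was 6.24 in the same direction. The size of the log2 difference depended on the added constant, at -1.69 with 0.1 and -0.18 with 5, and it was -2.10 (unadjusted p = 0.0121, adjusted p = 0.14 in limma) with 0.1 and the protein-coding scaling. The summed markers of skeletal muscle were also lower with LPS: the 6 listed genes summed to 8.52, 2.44 and 4.83 scaled TPM untreated and to 2.16, 1.38 and 1.06 with LPS, without overlap. Only 1 of the 6 genes, the myosin gene Myh4, was at 0 in all 6 samples. The skeletal actin gene Acta1, 1 of the 6, stood at 0.829, 1.75 and 0.231 untreated and at 0, 0.195 and 0.0264 with LPS, also without overlap. The groups of Ckm, another of the 6, did overlap, at 0.656, 0.480 and 0.0386 untreated and at 0.0933, 0.149 and 0.0721 with LPS. The second replicate of each group, with the most Prkaa2, had the most Acta1, although in the untreated group it had the lowest muscle sum. The part of muscle RNA in the difference was not tested.

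Of the beta subunits, Prkab1 (beta1) lies on chromosome 5 (116151645 to 116162567, minus strand) and Prkab2 (beta2) on chromosome 3 (97565509 to 97581146, plus strand). Prkab1 stood at 4.48, 2.58 and 0.305 scaled TPM untreated and at 2.87, 2.72 and 2.10 with LPS. Prkab2 stood at 2.84, 0.125 and 3.99 untreated and at 1.57, 1.07 and 1.93 with LPS. For both genes the untreated samples reached above and below all LPS samples, so that the means of 2.46 ± 2.09 and 2.56 ± 0.410 for Prkab1 and of 2.32 ± 1.98 and 1.52 ± 0.430 for Prkab2 (SD, n = 3 each) were separated by less than the spread. The log2 difference of Prkab1 was 0.27 (SE 0.57, 95% interval -1.13 to 1.66, adjusted p = 0.81 in limma). That of Prkab2 was -0.15 (SE 0.61, 95% interval -1.65 to 1.34, adjusted p = 0.90 in limma). The sample in which each gene was lowest was not the same: the third untreated sample held the least Prkab1 and the most Prkab2, and the second held the least Prkab2. The log2 ratio of Prkab1 to Prkab2 within a sample accordingly ran from -1.93 to 1.67 untreated and from 0.08 to 0.84 with LPS, and the group means differed by 0.42 (SE 1.09, exact permutation p = 0.8 two-sided, n = 3 each).

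The gamma subunit gene Prkag2, which carries nucleotide-binding CBS domains and is mutated in a human heart disease, lies on chromosome 5 (25067728 to 25306439, minus strand). Prkag2 stood at 3.04, 0.639 and 0.128 scaled TPM untreated and at 0.410, 0.234 and 0.608 with LPS, means of 1.27 ± 1.55 and 0.418 ± 0.187 (SD, n = 3 each). The first untreated sample alone lay clearly above the rest and the third lay below every LPS sample. The log2 difference was -0.47 (SE 0.51, 95% interval -1.72 to 0.78, adjusted p = 0.63 in limma), and without the first untreated sample it was 0.05. Transcripts of Prkag2 share stretches of at least 150 bases at 95% identity or more with 258 other genes, the longest of 600 bases, so its value is uncertain. Prkag3, the gamma form of fast skeletal muscle (chromosome 1, 74775818 to 74788380, minus strand), was listed at 0 in 5 samples and at 0.0235 scaled TPM in the second untreated sample, on which its log2 difference of -0.01 rests.

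Among the upstream kinases, Camkk2, whose product phosphorylates AMPK when calcium rises, gave the largest difference of the 10 genes, while Stk11, which encodes the tumour suppressor LKB1, showed overlapping groups. Camkk2 lies on chromosome 5 (122869233 to 122917739, minus strand) and stood at 0.555, 0.475 and 0.833 scaled TPM untreated and at 2.48, 8.71 and 3.94 with LPS, means of 0.621 ± 0.188 and 5.05 ± 3.26 (SD, n = 3 each). The lowest LPS value was above the highest untreated value, and the second LPS sample stood apart above the other 2. The LPS mean was 8.12 times the untreated mean, and 5.23 times with each sample scaled to its protein-coding total. The log2 difference was 1.77 (SE 0.45, 95% interval 0.67 to 2.87), with an unadjusted p of 0.00742 and an adjusted p of 0.11 in limma, which met the p limit but not the fold limit. It went past both at 2.68 with 0.1 in place of 1 added before the logarithm, and at 2.10 without the first LPS sample, with adjusted p of 0.082 and 0.17. The p limit was lost with the protein-coding scaling (unadjusted p = 0.011 in limma), quantile normalization (0.013) and 5 added (0.018). It was also lost with the replicate number as a block (0.018) and without any single sample other than the first LPS sample. Over all alternatives run, the difference of Camkk2 stayed between 0.79 and 2.78 and its adjusted p between 0.0046 and 0.29. The 2.78 and the 0.0046 were from voom. In the other fits the lowest adjusted p was 0.053, among genes with a mean of at least 1, so none of them reached the adjusted limit. Antisense loci overlap Camkk2: the 1 in the table, Gm43684, stood at 0.574 to 1.36 untreated and at 0.376 to 0.753 with LPS, and the strand setting of the counting is not given in the sources used here.

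The sum of macrophage markers was also higher with LPS. The 9 macrophage markers in the table, none of them at 0 throughout, summed to 186, 165 and 197 scaled TPM untreated and to 355, 414 and 268 with LPS, without overlap. Relative to the protein-coding total of its sample, the third LPS sum (268 of 203470) lay below the third untreated sum (197 of 142293). With that scaling the groups overlapped. Of the 9, 1, the complement gene C1qb, passed a limit (2.85, 0.712 and 4.75 against 23.9, 17.3 and 18.0). The groups of the complement gene C1qa overlapped (1.20, 1.51 and 20.0 untreated against 14.4, 6.55 and 10.0 with LPS), with its highest value in an untreated sample. The second LPS sample, with the most Camkk2, also had the highest sums of macrophage and of neutrophil markers. The first LPS sample, with less Camkk2 than the third, had a higher macrophage sum than the third. Of the 12 neutrophil markers the 1 that passed a limit, Cxcr2, was lower with LPS. The part of these cells in the Camkk2 difference was not tested. The plot of 3 genes beside marker sums gives Camkk2, Prkaa2 and Ulk1 in this way.

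**Figure D2:**
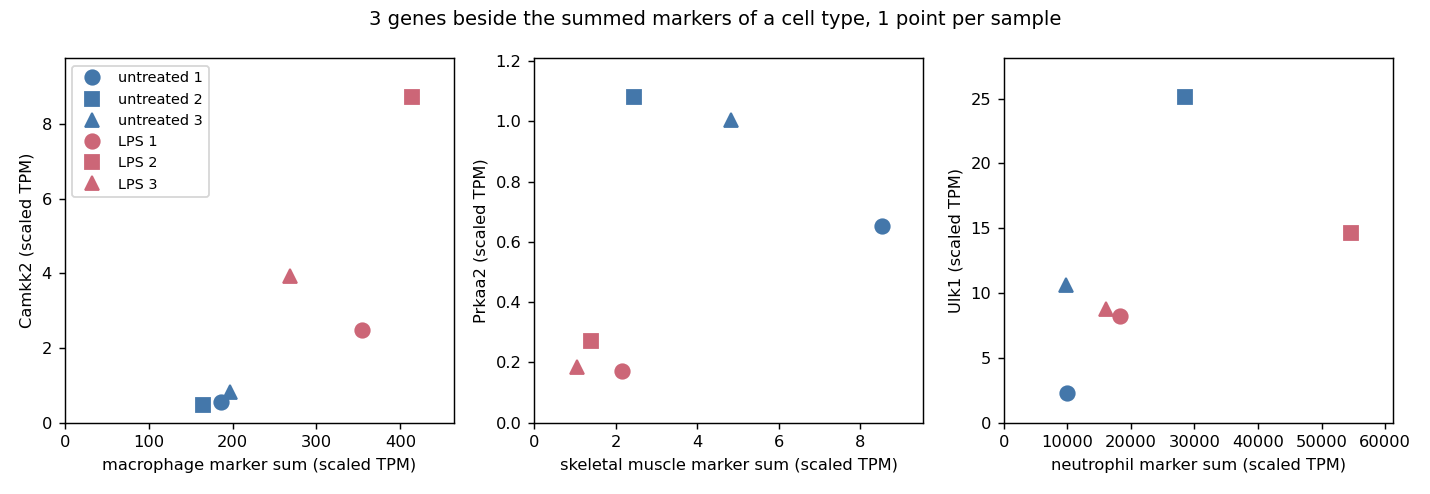
Scaled TPM of Camkk2, Prkaa2 and Ulk1 (vertical axes) against the summed scaled TPM of macrophage, skeletal muscle and neutrophil markers (horizontal axes), 1 point per sample, with colour for the group and symbol for the replicate number. On the deposited scaling the 3 LPS samples have higher macrophage sums (268 to 414) than the untreated samples (165 to 197). Divided by the protein-coding total of each sample, the macrophage sums of the groups overlap. The LPS samples have lower muscle sums (1.06 to 2.16 against 2.44 to 8.52), and the second replicate of each group has the highest neutrophil sum and the most Ulk1.

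Stk11 lies on chromosome 10 (79951597 to 79966520, plus strand) and stood at 3.39, 5.48 and 5.05 scaled TPM untreated and at 6.05, 9.32 and 5.29 with LPS, means of 4.64 ± 1.11 and 6.88 ± 2.14 (SD, n = 3 each). The third LPS sample lay below the second untreated sample. The log2 difference was 0.47 (SE 0.34, 95% interval -0.37 to 1.31, adjusted p = 0.55 in limma), and scaled to the protein-coding total it was 0.04. Within a sample, the log2 ratio of Stk11 to Camkk2 does not depend on a scaling other than through the added 1. This ratio was 1.50, 2.14 and 1.72 untreated and 1.02, 0.09 and 0.35 with LPS, means of 1.79 ± 0.32 and 0.48 ± 0.48 (SD, n = 3 each). All LPS ratios lay below all untreated ratios, a difference of -1.30 (SE 0.33, exact permutation p = 0.1 two-sided, the smallest that 3 against 3 samples can give, and 0.30 after Benjamini-Hochberg adjustment over the 3 ratios tested). The difference was -2.13 with 0.1 added and -0.50 with 5 added, without overlap in either case.

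The promoters of the 2 genes whose groups did not overlap are shown because these are the windows in which a reader would look for shared sequence. They are RefSeq windows on GRCm38.p6, read 5′ to 3′ on the strand of the gene, in 300 bases around the annotated start, Camkk2 at chr5:122779361-122779660 (minus strand) and Prkaa2 at chr4:105109849-105110148 (minus strand). Capitals mark matches, on either strand, to the GC box GGGCGG or the CCAAT box CCAAT.
Camkk2: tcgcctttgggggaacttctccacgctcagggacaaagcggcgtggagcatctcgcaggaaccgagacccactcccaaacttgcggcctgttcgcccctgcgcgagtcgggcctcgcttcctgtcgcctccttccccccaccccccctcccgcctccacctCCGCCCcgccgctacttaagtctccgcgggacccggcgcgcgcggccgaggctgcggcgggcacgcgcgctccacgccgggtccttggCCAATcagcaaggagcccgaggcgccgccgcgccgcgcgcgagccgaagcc
Prkaa2: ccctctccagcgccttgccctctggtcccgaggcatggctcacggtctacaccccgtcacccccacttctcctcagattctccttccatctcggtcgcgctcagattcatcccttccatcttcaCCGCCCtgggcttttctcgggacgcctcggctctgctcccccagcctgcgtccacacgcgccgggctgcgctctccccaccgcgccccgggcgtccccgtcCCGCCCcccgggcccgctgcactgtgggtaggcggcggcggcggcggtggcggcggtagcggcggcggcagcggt
The Camkk2 window held 1 GC box and 1 CCAAT box, and the Prkaa2 window 2 GC boxes and no CCAAT box. Over the 12 windows of the 10 genes, 7 held a GC box and 5 a CCAAT box, where 35.7% and 37.4% of 32851 windows of mouse genes did. The TATA box TATAAA was in 1 window (13.6% of all windows), and the E-box CACGTG (7.15%), the cyclic AMP element TGACGTCA (1.79%) and the kappaB motif (5.56%) were in none of the 12. No motif overlapped another in the windows printed. A match is a run of letters and not a measured binding site.

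Of the substrates, Ulk1 encodes the kinase that starts autophagy and lies on chromosome 5 (110931496 to 110957995, minus strand). Ulk1 stood at 2.26, 25.1 and 10.6 scaled TPM untreated and at 8.23, 14.7 and 8.81 with LPS, means of 12.6 ± 11.6 and 10.6 ± 3.56 (SD, n = 3 each). The untreated samples enclosed all LPS samples, with the highest untreated value 11.1 times the lowest. The log2 difference was 0.17 (SE 0.78, 95% interval -1.72 to 2.07, adjusted p = 0.92 in limma), and its interval reaches past 1 log2 unit in both directions. Scaled to the protein-coding total it was -0.26. The second replicate of each group, which held the most Ulk1, also held the most neutrophil marker RNA (28504 and 54649) and the least B cell marker RNA (280 and 262), and the part of cell makeup in the spread of Ulk1 was not tested.

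The 2 acetyl-CoA carboxylase genes make malonyl-CoA, Acaca in the cytosol for fatty acid synthesis and Acacb at the mitochondrion, where it limits fatty acid import. Acaca (chromosome 11, 84020476 to 84292477, plus strand) stood at 0.522, 1.01 and 1.14 scaled TPM untreated and at 0.711, 0.633 and 0.931 with LPS, and the LPS samples lay inside the untreated range. Its log2 difference was -0.09 (SE 0.30, adjusted p = 0.88 in limma). A processed pseudogene of Acaca on chromosome 12, Gm5182, carries 6118 bases at 99.9% identity and was itself listed at 0 in 5 samples and at 0.0555 in the first LPS sample, and 178 genes in all share a near-identical stretch with Acaca, so reads could be split. Acacb (chromosome 5, 114284307 to 114388822, plus strand) was listed at 0.115, 0 and 0 untreated and at 0.00381, 0 and 0.0203 with LPS, and its log2 difference of -0.04 turned to 0.01 without the first untreated sample. The log2 ratio of Acaca to Acacb differed by -0.05 between the groups (SE 0.21, exact permutation p = 0.9 two-sided, n = 3 each).

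**Figure D3:**
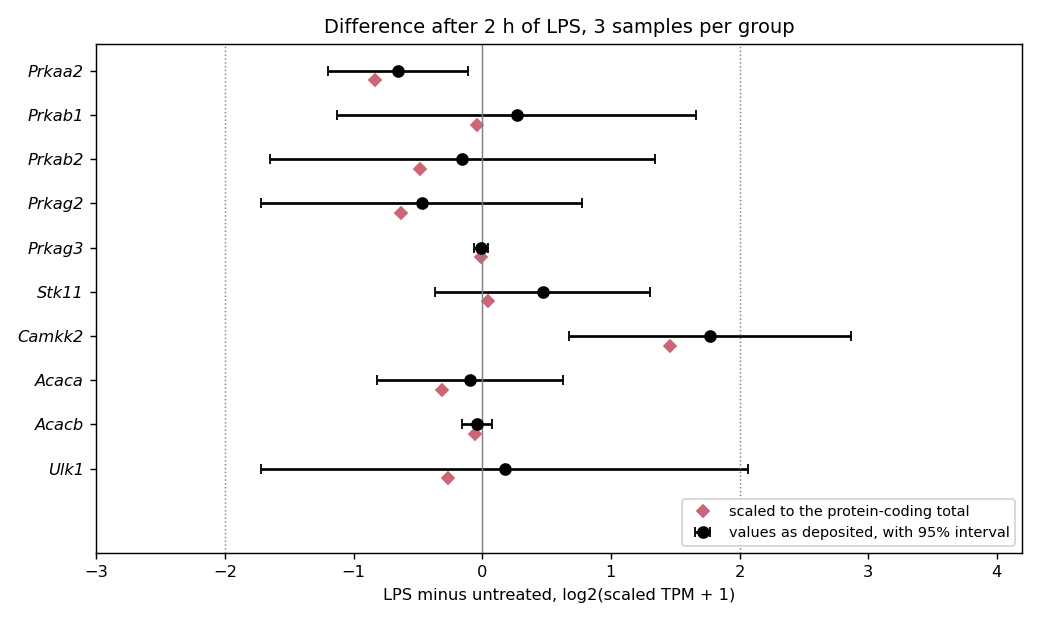
Log2 difference, LPS minus untreated, on log2(scaled TPM + 1) for each gene (circle) with its 95% interval from limma, and the same with samples scaled to the protein-coding total (diamond). Dotted lines mark the fold limit of 2 in each direction: the intervals of Camkk2 (0.67 to 2.87) and Prkaa2 (-1.20 to -0.11) leave out 0, and the diamonds of Prkab1 (-0.04) and Ulk1 (-0.26) lie on the other side of 0 from their circles.

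The spread between replicates was itself uneven. The SD of the log2 values was wider in untreated than in LPS samples for 8 of the 10 genes, beside 81.5% of the 7163 protein-coding genes with a mean of at least 0.5, so in this the AMPK genes were like the rest of the libraries. The highest untreated value was 31.9 times the lowest for Prkab2, 23.8 times for Prkag2 and 14.7 times for Prkab1, against 1.80, 2.60 and 1.37 times among the LPS samples. Camkk2 and Stk11 were the exceptions, with an SD of 0.16 untreated and 0.75 with LPS for Camkk2 and of 0.30 and 0.37 for Stk11. Of the 8 genes with 3 distinct values in each group, 4 (Prkaa2, Prkab1, Prkab2 and Ulk1) ordered the replicate numbers in the same way in both groups, beside 23.4% of the 7016 such protein-coding genes. Prkaa2 and Ulk1 were highest in the second and lowest in the first replicate of each group, Prkab1 was highest in the first and lowest in the third, and Prkab2 was highest in the third and lowest in the second.

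Around the 10 genes, 87 further genes of the pathway were listed, of which 65 were in the table and tested. LPS values were higher for 43 of them and lower for 22, with a median log2 difference of 0.23, beside the 0.31 of protein-coding genes at large. Higher with LPS were 12200 of the 23049 genes tested and 4559 of the 7163 protein-coding genes with a mean of at least 0.5. The 43 of 65 was near the share of the latter. Scaled to the protein-coding total, 31 were higher and 34 lower. Of the 65, 1 rose and 1 fell past the p and fold limits (1.69% of all genes tested were higher and 1.31% lower by that rule) and 1 passed the adjusted p (1.84% of all genes). The groups did not overlap for 17 genes with LPS above and for 7 with LPS below, beside 13.1% and 9.75% of all genes tested, and 33.6% in either direction of the protein-coding genes with a mean of at least 0.5. The gene that rose was Map3k7, which encodes TAK1, a kinase of Toll-like receptor signalling that can also act upstream of AMPK. Map3k7 stood at 0.249, 1.19 and 1.07 scaled TPM untreated and at 7.54, 7.55 and 7.45 with LPS, a log2 difference of 2.25 (SE 0.34, adjusted p = 0.0395 in limma), and at 1.95 (adjusted p = 0.066) it no longer met either limit with samples scaled to the protein-coding total. The gene that fell was Pfkfb4, an enzyme that sets the level of the glycolytic activator fructose 2,6-bisphosphate. Pfkfb4 stood at 18.4, 54.4 and 27.4 untreated and at 2.63, 7.16 and 4.11 with LPS, a log2 difference of -2.55 (SE 0.52, adjusted p = 0.071 in limma), and with samples scaled to the protein-coding total it was -3.01 (adjusted p = 0.031).

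The 2 called genes were a regulator of AMPK and a glucose target, and no other list held a called gene. Of 17 regulators of AMPK, 16 had a difference above 0, with a median of 0.57, and the 1 below 0 was the sestrin gene Sesn2 at -0.19. Scaled to the protein-coding total this list was split 11 and 6 (median 0.16), and with quantile normalization all 17 were above 0. Of 15 glucose and mitochondrial targets, 11 were above 0 (median 0.53), and Pfkfb4 lay farthest in the other direction (9 of 15 above 0 and a median of 0.23 with the protein-coding scaling). Of 7 lipid metabolism genes, 5 were below 0 (median -0.29) and the fatty acid synthase gene Fasn was farthest above it at 0.55, and 6 of the 7 were below 0 with the protein-coding scaling. The 6 genes of the ULK1 complex and autophagy initiation were split 3 and 3 (median -0.23), which became 1 above and 5 below (median -0.55) with the protein-coding scaling, and the 10 AMPK-related kinases 5 and 5 (median 0.01). Of 7 genes of TSC and mTORC1, 4 were above 0 (median 0.15), with Tsc1 at -0.44, and of the 3 partners of LKB1, 2 were above 0 (median 0.06), with the pseudokinase gene Strada at -0.44. The medians of these last 2 lists turned to -0.0050 and -0.41 with the protein-coding scaling. The AMPK-related kinase gene Snrk, named here after its values were seen, stood at 20.0, 19.8 and 21.0 scaled TPM untreated and at 3.20, 7.35 and 3.28 with LPS, and its log2 difference of -1.999 was just short of the fold limit (adjusted p = 0.058 in limma). Scaled to the protein-coding total Snrk was at -2.45 (adjusted p = 0.026) and met both limits.

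**Figure D4:**
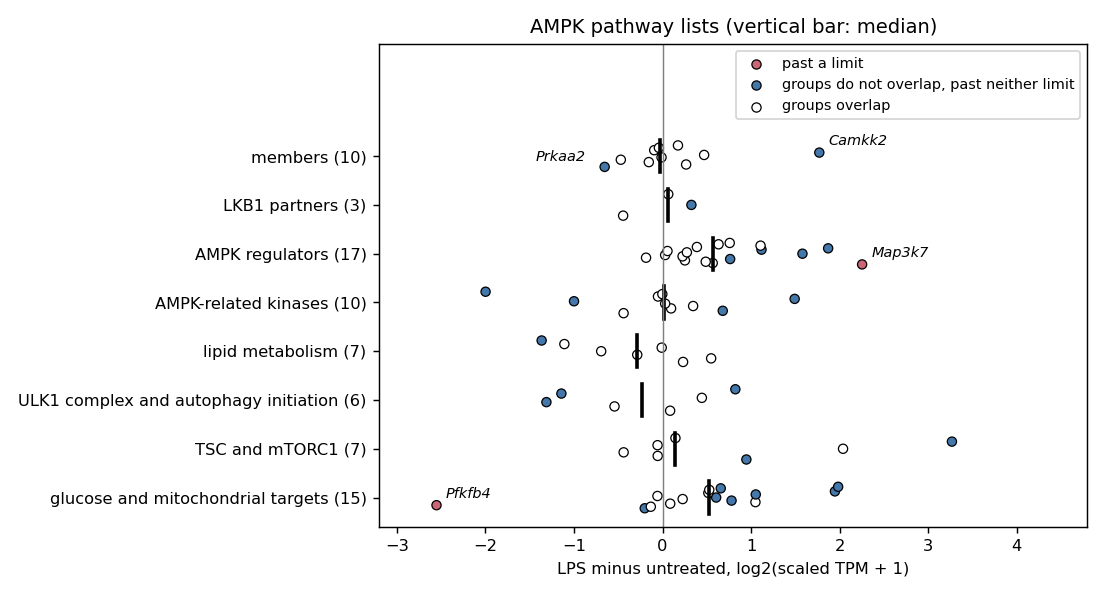
Log2 difference, LPS minus untreated, on log2(scaled TPM + 1) for each tested gene of the pathway, 1 row per list with its number of genes, where the vertical bar is the median of the list and colour tells genes past a limit from genes whose groups do or do not overlap. Map3k7 (2.25) and Pfkfb4 (-2.55) are past a limit, Camkk2 (1.77) and Prkaa2 (-0.65) have groups without overlap but past neither, and the regulators have a median of 0.57.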

How the data were processed

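RNA sequencing values of neutrophils from cGAS-/- mice, 3 untreated and 3 with LPS for 2 h, were grouped by their titles and treatment labels. The methods of the study name STAR on GRCm39, kallisto, a further normalization of read counts by the authors, and limma-voom for its own test. The processing notes of the submitters also name fastp and the build mm10, without saying for which step. The values deposited by the authors are named normalized counts and were taken as TPM, with each gene a mean over its transcript records and each sample divided by a constant. Of 15504 values at or above 0.01 in the third untreated sample, 85.2% had at most 7 decimals, and 90.2% of the other 2296 did after multiplication by a whole number from 2 to 60 (0.748% by chance). Read counts cannot be recovered from such means, the depth is unknown, and no count test was used for the main result. Voom, a method made for read counts, was run on these values only as an alternative, and its calls are not those of a count test.

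The 23049 genes above 0 in at least 1 sample were tested on log2(value + 1) with limma 3.58.1 in R 4.3.3 (lmFit and eBayes with trend, two-sided, LPS against untreated, no covariate), with Benjamini-Hochberg adjustment over all of them. The calls were an unadjusted p under 0.01 with a log2 difference over 2, the limits of the study, or an adjusted p under 0.05. The test was tried on simulated data. Ratios of paralogs or kinases were compared by exact permutation over samples. Gene positions are from GENCODE M39 on GRCm39, near-identical stretches from blastn 2.17.0 on its transcripts (at least 150 bases and 95% identity), and promoters from RefSeq on GRCm38.p6.

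The 10 genes and all lists were chosen with earlier results of these data known. The genes named are the 10, Cgas, Il1b and Cxcl2, and, of each pathway list, genes past a limit (up to 4 by size) and the gene farthest in the direction opposite to most of its list. Outside this rule, Snrk and Lamtor3 are named, as are loci that overlap or resemble Camkk2 or Acaca. The cell type markers shown singly were also outside it, chosen by hand from the longer marker lists. The alternatives were other added constants (0.1, 5), a mean of at least 1, genes at 0 kept, quantile normalization, scaling to the protein-coding total, median centring, no trend, voom, the replicate number as a block and leaving out each sample. Scaling to the protein-coding total with 0.1 added, and protein-coding genes alone, were added after seeing the data.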

Additional observations from a re-analysis of the deposited data

How the results depend on the processing

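Of 277 alternative values, 226 kept their direction and, for single genes, their side of the p and fold limits, or, for counts of genes, stayed within 1.5 times the reported count. Camkk2, Prkaa2 and Stk11 kept their direction under every alternative run. The other 7 genes changed sign under at least 1. Scaling to the protein-coding total, which moved the median of 5894 protein-coding genes from 0.37 to 0.01 and the genes called higher and lower from 389 and 301 to 220 and 522, gave Prkab1 -0.037 and Ulk1 -0.26 (-0.23 with 0.1 added). Adding 0.1 in place of 1 gave Prkab2 0.19, the ratio of Acaca to Acacb 0.10 and Camkk2 2.68. Prkaa2 ranged from -2.10 to -0.18 over the alternatives. Camkk2 was at 2.21 with both changes and at 1.46, past neither limit, by scaling alone. The voom fit gave Camkk2 2.78, Prkab2 0.55, Prkag2 0.09, Acaca 0.50, Prkag3 0.60 and Acacb 0.60, and since it gives 0.63 to a gene at 0 in all samples, the calls of the last 2 are made by its construction. Prkaa2 passed the adjusted limit without the trend (0.044).

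Of the 10 genes, 1 (Camkk2) passed the p and fold limits with 0.1 added, with voom and with protein-coding scaling and 0.1 added. Those fits passed 5.85%, 7.50% and 5.78% of all genes, beside 2.99% in the main fit. At the adjusted limit 1 passed without the trend (5.63% of all genes in that fit) and 3 with voom (40.8% of all genes). Leaving out 1 sample at a time gave 0 to 1 past the p and fold limits, the 1 being Camkk2 without the first LPS sample (2.28% of all genes). So left out, the differences ranged from -0.32 to 0.71 for Prkab1, -0.81 to 0.27 for Prkab2, -0.87 to 0.052 for Prkag2, 1.36 to 2.10 for Camkk2, -0.24 to 0.0036 for Acaca, -0.067 to 0.012 for Acacb and -0.63 to 0.87 for Ulk1. The ratio of Acaca to Acacb ranged from -0.25 to 0.071 and that of Prkab1 to Prkab2 from -0.59 to 1.21. Without the first untreated sample Prkab2, Prkag2, Acacb and Ulk1 turned, and without the third untreated sample Prkab1, Prkab2 and Acaca. Ulk1 also turned without the second LPS sample.

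Of the 65 pathway genes, 2 passed the p and fold limits, beside 2.99% of all genes in that fit. The count was 6 with 0.1 added (5.85% of all genes), 0 with 5 added (1.29%) and 4 with median centring (3.20%). It was 9 with voom (7.50%) and 5 with protein-coding scaling and 0.1 added (5.78%). Without a sample it was 1 to 5 (2.08% to 3.51% of all genes). The 1, Map3k7, came without the first LPS sample, and the 5, Map3k7 not among them, without the first untreated sample. Where the count stayed near 2 the genes could still change: Snrk joined with quantile normalization and without the second untreated sample, Snrk took the place of Map3k7 with protein-coding scaling, and Lamtor3 that of Pfkfb4 without the third sample of either group. At the adjusted limit 1 passed, beside 1.84% of all genes. With 0.1 added 0 passed (2.47%), and among genes with a mean of at least 1 there were 5 (11.1% of the genes in that fit). With protein-coding scaling 3 passed, with or without 0.1 added (2.57% and 2.21%), and 4 without the trend (5.63%). The voom fit gave 29 (near its 40.8% of all genes), and protein-coding genes alone 2 (3.20%). Without a sample there were 0 to 2 (0.0347% to 1.95%), with 0 without the third untreated sample, the first LPS sample or the third LPS sample. Unless stated, the cause was not tested.

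The replicate numbers were not taken as pairs: deviations of same-numbered samples correlated at 0.10, 0.22 and 0.093 over 9403 genes with a mean of at least 1, although each sample correlated best with its own number. Erythroid marker sums were 356, 21.5 and 5629 untreated and 572, 165 and 4651 with LPS, in replicate order. Neutrophil, B cell and dendritic cell sums also kept their order between the groups, while the sums of the other cell types did not. Whether same-numbered samples share a source was not tested. With the number as a block, Camkk2 was at 1.77 (limma adjusted p = 0.23) and Prkaa2 at -0.65 (0.36), 0 of the 10 genes passed either limit, 2 pathway genes passed the first and 0 the second, and 1 and 15 genes in all were called higher and lower by adjusted p instead of 206 and 218. Prkaa2, Prkag2, Prkag3, Acaca and Acacb have means under 1 and no value in the fit with that minimum. With 3 samples a group and unknown depth, differences within the untreated spread could not be resolved.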
